A study of Mus musculus with 4 samples.

Results

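The genes described here encode the pathway that presents peptides on major histocompatibility complex (MHC) class I molecules. They are 10 of the 55401 genes in the deposited count table, taken by symbol: the class I heavy chain genes H2-K1, H2-D1 and H2-Bl, the light chain gene B2m, the peptide transporter genes Tap1 and Tap2, the tapasin gene Tapbp, the immunoproteasome genes Psmb8 and Psmb9, and the class I transactivator gene Nlrc5. All 10 symbols were found. The study compared R1 mouse embryonic stem cells labelled Usp28 KO (2 libraries) with R1 cells labelled CTL, genotype WT (2 libraries), by polyadenylated RNA sequencing. Both groups grew on 0.2% gelatin in N2B27 medium with 1 μM PD0325901, which inhibits MEK, 3 μM CHIR99021, which inhibits GSK3, and 10 ng/ml LIF. Usp28 encodes a deubiquitinase. The labels do not say how the knockout was made, whether it is 1 clone, or whether replicate libraries are separate cultures, so the spread between libraries may be technical. The members were chosen by their differences in expression between Usp28 KO and CTL libraries in this same table. Their values are therefore given as a description, without a p-value for any single member. Statements of which members were called or lay under a threshold are a description too.

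Class I molecules display short peptides from proteins inside the cell to cytotoxic T cells. The proteasome cuts the proteins, TAP1 and TAP2 carry the peptides into the endoplasmic reticulum, and tapasin with other chaperones loads them onto a heavy chain bound to β2-microglobulin. Interferons raise the transcription of most of these genes, in part through NLRC5, which acts at a promoter module shared by class I genes. Embryonic stem cells are known for low class I expression.

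The libraries held 17996611 and 18709558 counts in Usp28 KO cells and 19533608 and 16595196 in CTL cells. The targeted gene, Usp28 (chromosome 9), was read in all libraries, with 181 and 177 CPM (counts scaled to the size of each library) in Usp28 KO cells and 189 and 197 CPM in CTL cells. Its log2 fold change was -0.11 ± 0.15 (edgeR, adjusted p = 0.857), so the gene-level count does not check the knockout label. The 6 stem cell markers (Pou5f1, Sox2, Nanog, Esrrb, Zfp42, Klf4) summed to between 3335 and 3676 CPM in Usp28 KO cells and between 3765 and 3791 CPM in CTL cells. Of 8 blood and immune markers, Ptprc and Lyz2 were at 0 in all 4 libraries. The sum of those markers was 19.2 and 36.0 CPM in Usp28 KO cells and 18.7 and 30.5 CPM in CTL cells, most of it from Cd68, which encodes a lysosomal protein. Of 8 fibroblast and feeder markers, Dcn, Lum and Postn were at 0, and the sum was 1.605 to 1.71 CPM in Usp28 KO cells and 1.64 to 1.94 CPM in CTL cells. Primitive endoderm markers summed to 11.7 and 12.3 CPM in Usp28 KO cells and 12.5 and 8.32 CPM in CTL cells. Trophoblast markers summed to 136 and 172 CPM in Usp28 KO cells and 141 and 180 CPM in CTL cells. Most of that came from Tfap2c, with 123 and 152 CPM in Usp28 KO cells and 128 and 160 CPM in CTL cells. Eomes stood at 12.5 and 19.9 CPM in Usp28 KO cells and 12.7 and 19.1 CPM in CTL cells. Cdx2, Gata3, Elf5 and Krt7 had under 10 counts in each library. In such bulk samples, more cells that express a gene and more RNA per cell cannot be told apart.

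Of the 10 genes, 8 lie on chromosome 17, in and beside the mouse MHC (H2 complex). B2m lies on chromosome 2 and Nlrc5 on chromosome 8. In the mm10 positions of the deposited table, Tapbp spans 33915899 to 33929292 on the plus strand, and H2-K1 spans 33996017 to 34000347 on the minus strand. Psmb9 (34181987 to 34187764, minus strand), Tap1 (34187553 to 34197225, plus), Psmb8 (34197721 to 34201454, plus) and Tap2 (34203527 to 34216321, plus) form a block. H2-D1 spans 35262730 to 35267499 on the plus strand, and H2-Bl spans 36080115 to 36084223 on the minus strand. GENCODE M21 annotates H2-Bl as a polymorphic pseudogene, a gene that is intact in some strains, and the other members as protein coding. Psmb9 and Tap1 share 212 exonic bases on opposite strands, which is 5.79% of the exon length of Psmb9 and 3.87% of that of Tap1. The strand setting of the counting is not given in the sources used here, so their reads cannot be fully told apart.

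The promoters of H2-K1, H2-D1, B2m and Tap1 are shown because the first pair share sequence, B2m serves the same protein complex, and Tap1 faces Psmb9. Each run holds the 250 bases before the RefSeq start (build GRCm38.p6), 5′ to 3′ on the gene's strand. Capitals mark matches to CCAAT (the CCAAT box), GAAA repeated after 2 bases of any kind (like an interferon-stimulated response element, ISRE), TTCNNNGAA (like an interferon γ-activated site), GGGNNTTCC (like an NF-κB site) and the longer run beginning GGGGATT that holds it in H2-K1 and H2-D1, and TGACG (the core of a cyclic AMP response element), on either strand, where N is any base.
H2-K1, chr17:34000348-34000597, minus strand: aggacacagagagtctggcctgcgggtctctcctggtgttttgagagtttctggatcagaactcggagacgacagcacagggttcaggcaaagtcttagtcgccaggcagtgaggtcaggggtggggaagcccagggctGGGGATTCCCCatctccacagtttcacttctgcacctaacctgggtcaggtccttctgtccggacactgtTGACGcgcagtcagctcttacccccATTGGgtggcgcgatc
H2-D1, chr17:35262844-35263093, plus strand: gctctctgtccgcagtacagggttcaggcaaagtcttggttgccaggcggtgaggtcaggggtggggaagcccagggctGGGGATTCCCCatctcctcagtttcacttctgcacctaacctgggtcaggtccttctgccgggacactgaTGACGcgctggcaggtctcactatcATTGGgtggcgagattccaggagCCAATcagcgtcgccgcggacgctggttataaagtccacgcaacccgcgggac
B2m, chr2:122147437-122147686, plus strand: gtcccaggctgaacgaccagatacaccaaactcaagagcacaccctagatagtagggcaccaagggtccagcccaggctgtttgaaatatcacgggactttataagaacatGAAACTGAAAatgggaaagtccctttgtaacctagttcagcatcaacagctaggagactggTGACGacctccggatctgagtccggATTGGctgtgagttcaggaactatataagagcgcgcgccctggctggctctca
Tap1, chr17:34187306-34187555, plus strand: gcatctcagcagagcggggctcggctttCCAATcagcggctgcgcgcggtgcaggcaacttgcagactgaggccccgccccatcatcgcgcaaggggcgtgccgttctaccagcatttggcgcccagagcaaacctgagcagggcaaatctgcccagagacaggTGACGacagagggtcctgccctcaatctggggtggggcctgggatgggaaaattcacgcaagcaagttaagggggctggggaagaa

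The H2-K1 and H2-D1 runs matched at 89.5% of 190 aligned bases (global alignment), with 120 gap bases left out. For the other pairs of members with an entry the same measure ran from 55.2% to 71.4%. H2-K1 and H2-D1 both hold that longer run, in full as capitalised, which was found in 10 of 32851 promoter entries of the RefSeq table (0.0304%). Of those 10 entries, 3 belong to H2-K1 and H2-D1, and H2-Q6, another class I gene, has 1. B2m holds the ISRE-like match gaaactgaaa, from 139 to 130 bases before its start, where 2.98% of all entries hold such a match in these 250 bases. TGACG with a CCAAT box downstream of it stands in the H2-K1, H2-D1 and B2m runs. TGACG alone was found in 17.8% of all entries and CCAAT in 33.8%. The longer element TGACGTCA (1.55% of entries) was found in none of the 7 members with an entry. The starts of Tap1 and Psmb9 lie 226 bases apart on opposite strands, so their promoter windows share 275 of 300 bases. TTCNNNGAA was found in the Psmb8 window only among these members, against 7.02% of all entries. H2-Bl, Tap2 and Nlrc5 had no entry. A match is a run of letters, not a measured binding site.

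The heavy chain transcripts H2-K1, H2-D1 and H2-Bl were higher in Usp28 KO than in CTL cells in every library. H2-K1, a classical class I heavy chain, stood at 20.4 and 13.7 CPM in Usp28 KO cells and 7.73 and 7.69 CPM in CTL cells. The Usp28 KO libraries lay apart from each other here, and the groups did not overlap. H2-D1, also a classical heavy chain, stood at 11.8 and 11.6 CPM in Usp28 KO cells and 6.50 and 4.54 CPM in CTL cells. H2-Bl, a class Ib gene, stood at 17.9 and 18.9 CPM in Usp28 KO cells and 7.27 and 5.55 CPM in CTL cells. The log2 fold changes, Usp28 KO minus CTL, were 1.14 ± 0.25 for H2-K1, 1.08 ± 0.26 for H2-D1 and 1.52 ± 0.24 for H2-Bl (edgeR, with standard errors). Summed, these genes had 937 and 828 counts in Usp28 KO cells and 420 and 282 counts in CTL cells.

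B2m, the light chain that class I heavy chains need to reach the surface, did not share that pattern. It had 11.7 and 21.4 CPM in Usp28 KO cells and 15.3 and 21.9 CPM in CTL cells, so the groups overlapped and replicate 1 was the lower library in each group. Its log2 fold change was -0.17 ± 0.29, and its sign turned when a library was left out: it was 0.10 without CTL replicate 2 and 0.21 without Usp28 KO replicate 1. Levels of different genes were compared per exon length, as TPM (counts per base of exon, scaled to the same sum in each library), from the lengths in the table. B2m had 65.9 ± 26.8 TPM in Usp28 KO cells and 70.8 ± 15.2 TPM in CTL cells (SD, n = 2). In Usp28 KO cells, B2m TPM over the summed TPM of H2-K1, H2-D1 and H2-Bl was 0.612 and 1.22. In CTL cells that ratio was 1.88 and 3.32, so both Usp28 KO libraries lay below both CTL libraries. The summed genes were chosen for their difference, so this order is no separate support. H2-Bl, annotated as a polymorphic pseudogene, is part of the sum.

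**Figure D1:**
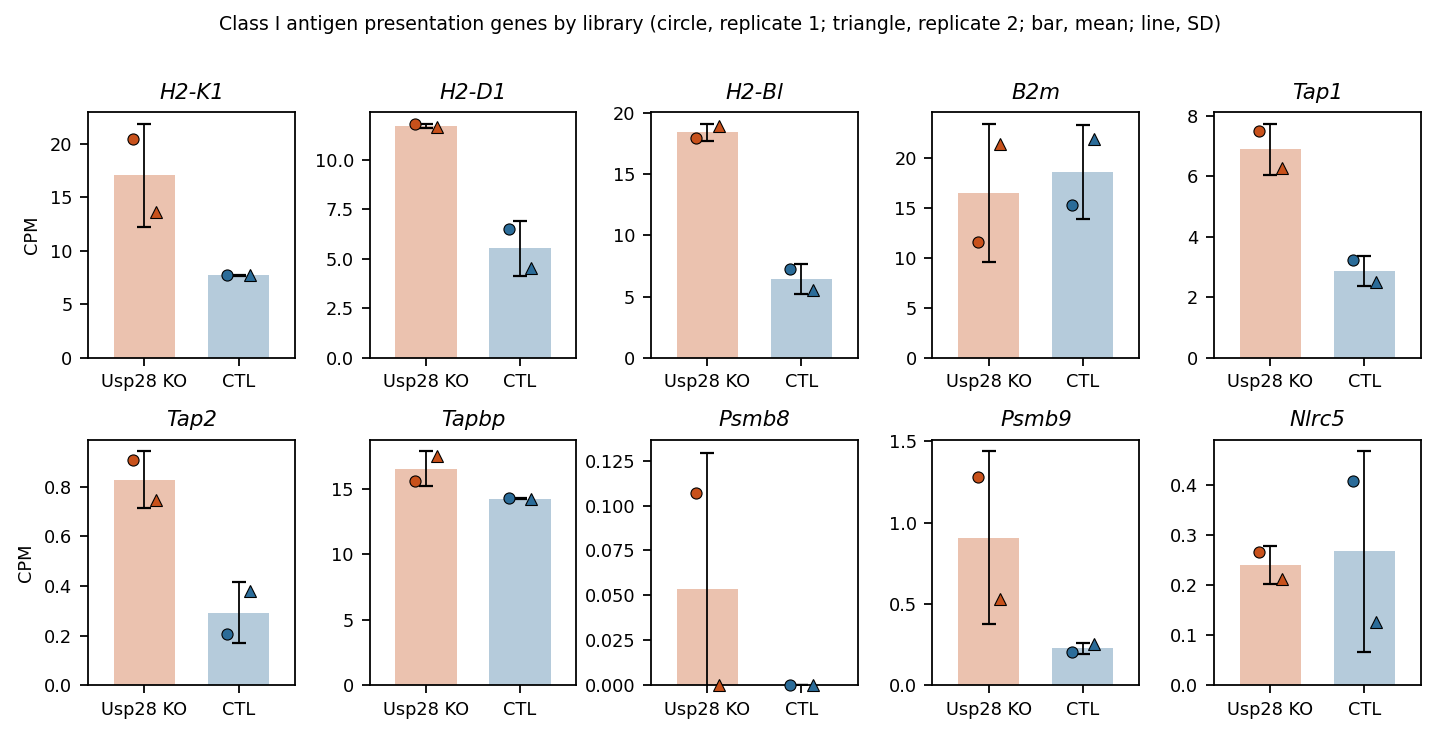
CPM (counts scaled to library size; y axis, from 0, with a scale of its own for each gene) of the 10 genes in Usp28 KO and CTL libraries. Bars are means, lines the SD of 2 libraries, circles replicate 1 and triangles replicate 2. H2-K1, H2-D1, H2-Bl and Tap1 are higher in both Usp28 KO libraries, B2m overlaps between the groups, and Psmb8 and Nlrc5 are near 0.

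The transporter genes were higher in Usp28 KO cells, and tapasin differed little. Tap1, which encodes a subunit of the peptide transporter, stood at 7.49 and 6.29 CPM in Usp28 KO cells and 3.22 and 2.52 CPM in CTL cells, a log2 fold change of 1.25 ± 0.30. Tap2, which encodes the partner subunit, had 17 and 14 counts in Usp28 KO cells and 4 and 6 counts in CTL cells, a log2 fold change of 1.52 ± 0.62. Tap2 passed the filter on low counts only through the Usp28 KO group, so its place among the tested genes is tied to its difference. Per length, Tap1 was the more abundant subunit, at 4.32 ± 0.581 TPM in Usp28 KO cells and 1.73 ± 0.366 TPM in CTL cells, against 0.753 ± 0.113 and 0.251 ± 0.0968 TPM for Tap2. Tapbp, which holds the empty heavy chain at the transporter, stood at 15.6 and 17.5 CPM in Usp28 KO cells and 14.3 CPM in each CTL library. Its log2 fold change of 0.21 ± 0.21 was about the size of its standard error, and it was 0.049 after correction for GC content with the replicate number as a block.

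The immunoproteasome genes and Nlrc5 were near the detection limit. Psmb9, a catalytic subunit that replaces PSMB6 in the immunoproteasome, had 24 and 10 counts in Usp28 KO cells and 4 counts in each CTL library. The groups did not overlap, but the Usp28 KO libraries differed from each other by more than the lower of them differed from CTL. Psmb8, which replaces PSMB5, had 2 and 0 counts in Usp28 KO cells and 0 in both CTL libraries. A count of 0 allows up to 3 counts, which is 0.160 CPM in either Usp28 KO library, 0.154 CPM in CTL replicate 1 and 0.189 CPM in CTL replicate 2, for counting error only. Nlrc5 had 5 and 4 counts in Usp28 KO cells and 8 and 2 counts in CTL cells, and the groups overlapped. At this depth a difference in Psmb8 or Nlrc5 was not detectable.

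The genes of the constitutive catalytic subunits were abundant in both groups. Psmb5 stood at 362 and 323 TPM in Usp28 KO cells and 385 and 270 TPM in CTL cells, where Psmb8 was at most 0.110 TPM. Psmb6 stood at 301 and 229 TPM in Usp28 KO cells and 287 and 201 TPM in CTL cells, where Psmb9 stood at 1.21 and 0.496 TPM in Usp28 KO cells and 0.189 and 0.220 TPM in CTL cells. Psmb10, the immunoproteasome counterpart of Psmb7, stood higher than Psmb8 and Psmb9, at 16.7 and 17.2 TPM in Usp28 KO cells and 21.7 and 16.1 TPM in CTL cells. In Usp28 KO cells the order of mean TPM among the 10 genes was B2m, H2-Bl, H2-K1, Tapbp, H2-D1, Tap1, Psmb9, Tap2, Nlrc5 and Psmb8. The neighbours H2-K1 (19.96 ± 5.84), Tapbp (15.7 ± 1.07) and H2-D1 (15.6 ± 0.318) did not differ beyond their spread there, and neither did Psmb9 (0.855 ± 0.508) and Tap2, or Nlrc5 (0.0973 ± 0.0166) and Psmb8 (0.0548 ± 0.0775). In CTL cells Tapbp, at 12.9 ± 0.526 TPM, stood between B2m and H2-Bl (12.6 ± 2.87 TPM), with H2-K1 (8.63 ± 0.367) and H2-D1 (7.07 ± 2.04) after them. Neither Tapbp and H2-Bl nor H2-K1 and H2-D1 differed beyond their spread in CTL cells.

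**Figure D2:**
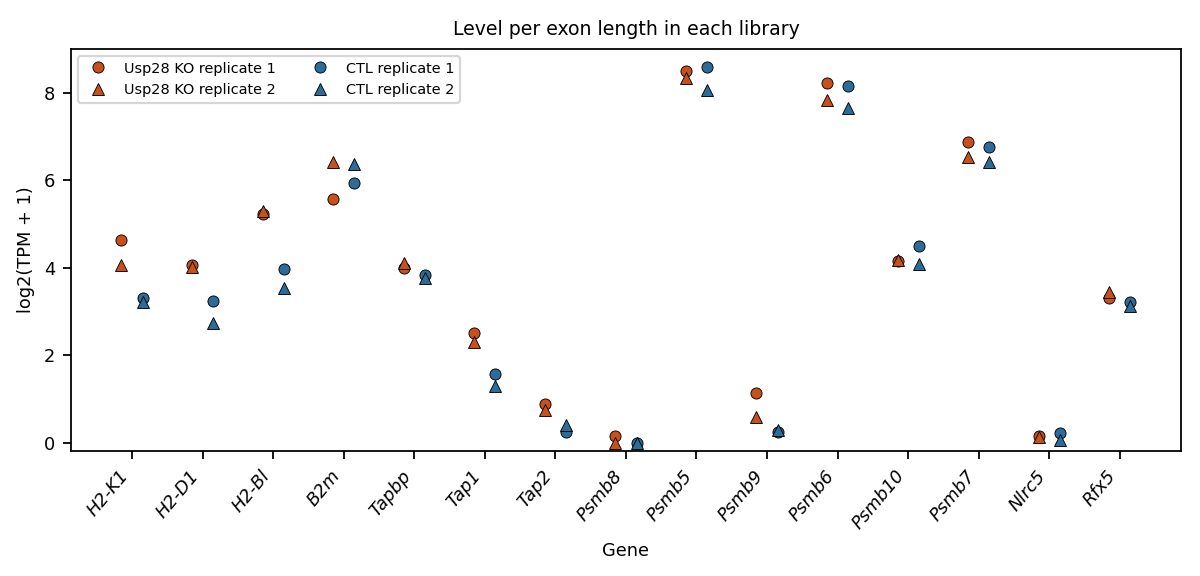
Level per exon length, as log2(TPM + 1), of the 10 genes and of Psmb5, Psmb6, Psmb7, Psmb10 and Rfx5, in each Usp28 KO (orange) and CTL (blue) library. Psmb5 and Psmb6 lie far above Psmb8 and Psmb9 in all 4 libraries, and the heavy chain genes are higher in the Usp28 KO libraries.

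Across the table, edgeR tested 15341 genes and called 0 at an adjusted p under 0.05 (0.0% in either direction). At an unadjusted p under 0.05, 1052 (6.86%) were higher and 666 (4.34%) lower, and DESeq2 called 89 (0.687%) higher and 51 (0.393%) lower. Of the 10 genes, 7 passed the filter on low counts. Of the tested genes, 0 members were called by edgeR, and 5 (H2-K1, H2-D1, H2-Bl, Tap1 and Tap2) were under an unadjusted p of 0.05 and higher, where 6.86% of all tested genes were. DESeq2 called 2 members higher, H2-Bl and H2-K1, beside 0.687% of the genes to which it gave an adjusted p. In 6 of the 7 the Usp28 KO libraries both lay above both CTL libraries, beside 21.4% of all tested genes. The median log2 fold change of the 7 was 1.14, against -0.0040 over all tested genes. These counts come from the values that chose the members and are no separate support for a difference.

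Leaving out a library changed the edgeR calls. Each such fit leaves 1 library in a group, assumed to vary like the other group, and called 49 to 146 genes higher and 31 to 200 lower in all. As the members were chosen on these values, their calls describe the dependence on single libraries and add no support. Without CTL replicate 1 the members called were H2-Bl and H2-D1, without CTL replicate 2 and without Usp28 KO replicate 1 H2-Bl alone, and without Usp28 KO replicate 2 H2-Bl, H2-K1 and Tap1. The H2-K1 log2 fold change was 0.82 without Usp28 KO replicate 1 and 1.40 without Usp28 KO replicate 2.

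The libraries also differed in how counts depended on the GC content of transcripts. Across 10704 genes averaging at least 5 CPM, the rank correlation of the log2 fold change with GC content was 0.323, and -0.0736 after a correction of each library for that trend. Before correction, each library's deviation from the mean of the others was also ranked against GC content. That correlation was 0.0031 and 0.451 in Usp28 KO replicates 1 and 2, and 0.0555 and -0.441 in CTL replicates 1 and 2. The tested members had a median GC content of 55.9%, against 49.7% over all tested genes, with B2m at 41.2% and H2-Bl at 57.8%. After the GC correction the log2 fold changes were 1.35 for H2-Bl, 1.05 for H2-K1, 0.95 for H2-D1, 1.13 for Tap1, 1.36 for Tap2, 0.050 for Tapbp and -0.031 for B2m, and the median was 1.05.

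**Figure D3:**
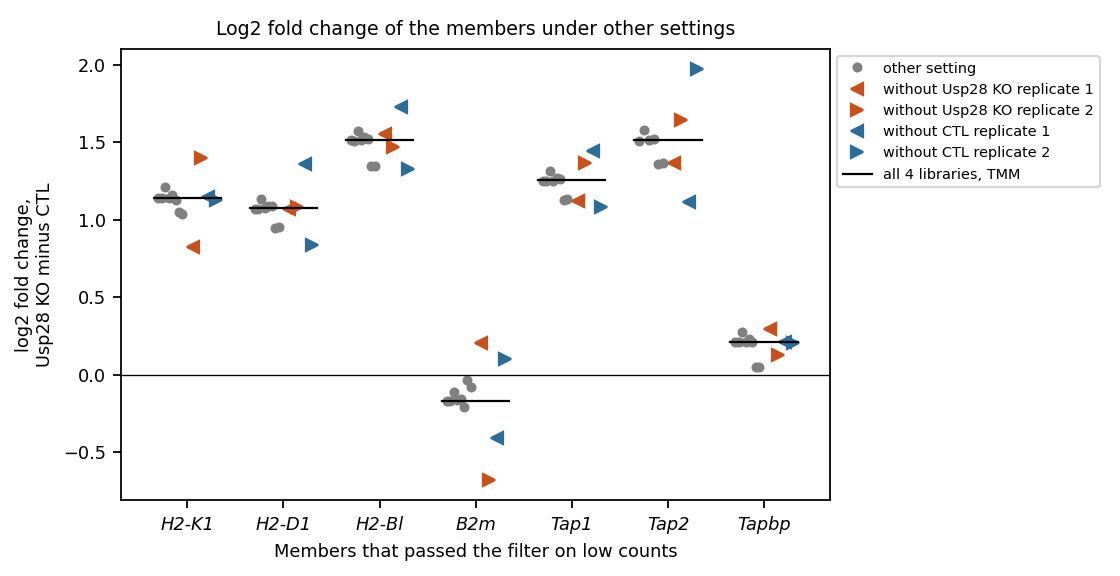
Log2 fold change, Usp28 KO minus CTL (y axis), of the 7 members that passed the filter on low counts. Black lines use all 4 libraries, triangles leave out 1 library and grey points use other settings. H2-K1, H2-D1, H2-Bl, Tap1 and Tap2 stay above 0 at every point, and B2m lies on both sides of 0.

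The class I H2 genes share sequence, so the origin of their reads was examined. Of the positions in the longest H2-K1 transcript, 8.11% began a 50-base run that also occurs in a transcript of another gene. This was 14.3% for H2-D1 and 11.8% for H2-Bl, and for runs of 100 bases it was 0.0%, 4.64% and 0.385%. For B2m it was 0.0% at both lengths. The read length is not given in the sources used here. The gene that shared most 50-base runs was H2-D1 for H2-K1 (6.52%) and H2-Q1 for H2-D1 (7.40%) and H2-Bl (8.08%). Among the other members the shares at 50 bases were 19.0% for Tapbp with the overlapping Gm19412 alone, and 12.6% for Tap2, mostly with Gm15821.

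Among class I genes outside the 10, H2-Q4 was the gene that passed a test. Of 23 further class I and class I-like genes in the table, 11 were tested and edgeR called 0. DESeq2 gave 7 of them an adjusted p and called 1, H2-Q4, higher, beside 0.687% of all genes with an adjusted p. H2-Q4, a class Ib heavy chain gene, stood at 9.36 and 7.41 CPM in Usp28 KO cells and 2.92 and 3.34 CPM in CTL cells (log2 fold change 1.42 ± 0.29; DESeq2, adjusted p = 0.0151; edgeR, adjusted p = 0.0927). With a library left out, edgeR called it in 2 of 4 fits, at an adjusted p of 0.0262 where CTL replicate 2 was left out and of 0.00377 where Usp28 KO replicate 2 was. H2-Q6 and H2-Q7, close relatives that share runs of 50 bases with each other, had log2 fold changes of 1.47 ± 0.42 and 1.497 ± 0.447 (edgeR, adjusted p = 0.200 and 0.224). H2-M5, an M-region gene, had 714 and 1028 counts in Usp28 KO cells and 1415 and 1072 counts in CTL cells, or -0.59 ± 0.19 on the log2 scale (edgeR, adjusted p = 0.281). Without Usp28 KO replicate 1 the H2-M5 value was -0.35, and without Usp28 KO replicate 2 it was -0.88 and called by edgeR (adjusted p = 0.0168). At 50 bases, H2-Q4 shared 36.9% of its runs with other genes, H2-Q6 35.0% and H2-Q7 28.5%, so their reads are less certain in origin than those of H2-K1.

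Over the 11 genes the median was 1.02, and it was 0.51 when at least 50 counts in 2 libraries were required. In 8 of the 11 the groups did not overlap with Usp28 KO higher, beside 21.4% of all tested genes. H2-Q2 and H2-M3 passed the filter only through the Usp28 KO group. Fcgrt, a class I-like gene, had 27 and 22 counts in Usp28 KO cells and 16 and 7 in CTL cells. It too needed its Usp28 KO libraries to pass, and its log2 fold change of 1.02 is the median. No support is therefore taken from that count of genes or from the median. The groups of H2-Q10 overlapped.

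H2-K2 lies beside H2-K1 and had a log2 fold change of 0.81 ± 0.32. The T-region gene H2-T22, which lies next to H2-Bl among tested genes, had 0.055 ± 0.42, and its groups overlapped. It shares 58.5% of its 50-base runs with other genes. H2-M3, which encodes a class Ib molecule that presents formylated peptides, had 17 and 19 counts in Usp28 KO cells and 2 and 7 counts in CTL cells. Summed over the 22 class I H2 genes of both lists found in the table, there were 2133 and 2268 counts in Usp28 KO cells and 2043 and 1537 in CTL cells, and the summed difference was 0.22 ± 0.16 on the log2 scale (edgeR, adjusted p = 0.6502). H2-M5 gave much of that sum. Without H2-M5, a subset chosen after its values were seen, the sum over 21 genes was 1419 and 1240 counts in Usp28 KO cells and 628 and 465 counts in CTL cells. Of these, 937 and 828 counts in Usp28 KO cells and 420 and 282 counts in CTL cells came from H2-K1, H2-D1 and H2-Bl, which were chosen for their difference.

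**Figure D4:**
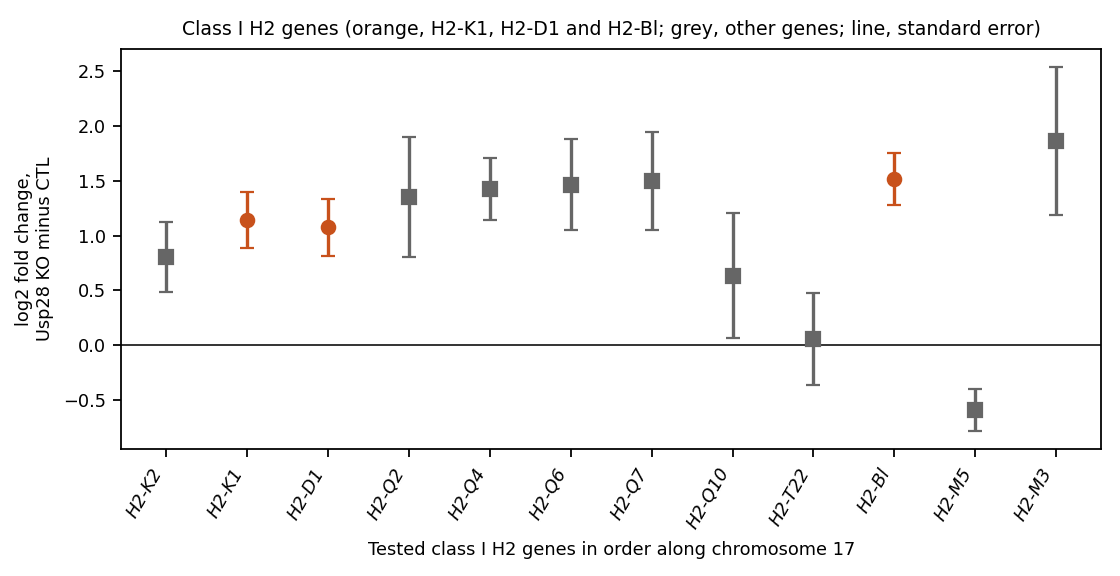
Log2 fold change, Usp28 KO minus CTL (y axis, with standard error), of the tested class I H2 genes in their order along chromosome 17. H2-K1, H2-D1 and H2-Bl (orange) lie between 1.08 and 1.52, the tested Q genes lie above 0, H2-T22 lies near 0 and H2-M5 lies below 0.

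The NF-κB-like element of H2-K1 and H2-D1 was also searched in the other class I promoters, shown here as 49-base stretches with GGGNNTTCC in capitals. The H2-Q4, H2-Q6 and H2-Q7 stretches are shown because these genes had the smallest p-values among higher genes of the list.
H2-K1, chr17:34000430-34000478, minus strand: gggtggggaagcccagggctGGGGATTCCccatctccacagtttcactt
H2-D1, chr17:35262903-35262951, plus strand: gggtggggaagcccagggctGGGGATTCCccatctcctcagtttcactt
H2-Q6, chr17:35424657-35424705, plus strand: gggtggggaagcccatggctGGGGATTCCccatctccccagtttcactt
H2-Q7, chr17:35439002-35439050, plus strand: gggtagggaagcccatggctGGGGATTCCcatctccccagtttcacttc
H2-Q4, chr17:35379424-35379472, plus strand: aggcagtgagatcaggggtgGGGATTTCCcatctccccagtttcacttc
GGGNNTTCC was found in 4.98% of all entries within these 250 bases. H2-M2, at 0 counts in all libraries, holds it too, at 2 places. The entries of H2-Q2, H2-Q10, H2-T22, H2-M3 and H2-M5 do not hold these letters in the window, and H2-T22 holds an ISRE-like match.

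Other steps of the pathway showed no called difference. Of 16 genes for peptide loading and trimming, all were tested, edgeR and DESeq2 called 0, 0 were under an unadjusted p of 0.05, and the median log2 fold change was -0.062. Erap1, the aminopeptidase that trims peptides in the endoplasmic reticulum, stood at 1.66 and 2.56 CPM in Usp28 KO cells and 3.07 and 4.16 CPM in CTL cells (log2 fold change -0.77 ± 0.36; edgeR, adjusted p = 0.460). Pdia3, a disulfide isomerase of the loading complex, stood at -0.30 ± 0.16 on the log2 scale (edgeR, adjusted p = 0.531). Tpp2 and Thop1, cytosolic peptidases, had -0.17 and 0.12, and the sign of each turned after GC correction. Of 10 further proteasome genes, 9 were tested with 0 called by either tool and 0 under an unadjusted p of 0.05, and the log2 fold changes ran from -0.22 for Psmb10 to 0.061 for Psmb6, whose sign turned when some libraries were left out. Psme3 and Psme4, which encode activators of the proteasome, had -0.094 and -0.14.

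No difference was called among regulators of class I transcription. Of 28 genes, 26 were tested, with 0 called by edgeR or DESeq2. At an unadjusted p under 0.05, 1 was higher and 2 were lower, beside 6.86% and 4.34% of all tested genes. The median log2 fold change was 0.034. Irf9, a subunit of the factor that answers type I interferon, stood at 15.5 and 21.1 CPM in Usp28 KO cells and 27.9 and 29.8 CPM in CTL cells (log2 fold change -0.66 ± 0.21; edgeR, adjusted p = 0.269). Nfyc, a subunit of the CCAAT-binding factor NF-Y, had -0.50 ± 0.17 (edgeR, adjusted p = 0.306). Rfxap, a subunit of the RFX complex that binds the class I promoter module, stood at 18.3 and 14.9 CPM in Usp28 KO cells and 12.3 and 10.3 CPM in CTL cells (0.55 ± 0.23; edgeR, adjusted p = 0.386). Irf8 had 14 and 17 counts in Usp28 KO cells and 2 and 8 counts in CTL cells, and passed the filter on low counts only through the Usp28 KO group. Irf1, an interferon-induced transcription factor gene, had a value of -0.28 ± 0.21 on the same scale. The class II transactivator gene Ciita had at most 3 counts in a library.

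Among interferon-stimulated genes outside antigen presentation, 5 tested genes lay above 0 and 4 below. Of 22 such genes, 9 were tested and 0 were called by edgeR or DESeq2. At an unadjusted p under 0.05, 1 was higher and 2 were lower, beside 6.86% and 4.34% of all tested genes. The median log2 fold change was 0.019, and it was 0.36 without Usp28 KO replicate 2 and 0.37 with no filter on low counts. The smallest p-values were those of Ddx58, Bst2, Irgm1 and Xaf1. Ddx58, the RNA sensor RIG-I, stood at 37.8 and 46.2 CPM in Usp28 KO cells and 68.4 and 64.8 CPM in CTL cells (-0.66 ± 0.17; edgeR, adjusted p = 0.171). Bst2, the tetherin gene, stood at 27.7 and 21.2 CPM in Usp28 KO cells and 12.7 and 14.9 CPM in CTL cells (0.82 ± 0.22; edgeR, adjusted p = 0.177). Irgm1, an interferon-induced GTPase gene, had 4 and 8 counts in Usp28 KO cells and 24 and 22 counts in CTL cells. Irgm1 passed the filter on low counts only through the CTL group, so its place among the 2 lower genes is tied to its difference. Xaf1 stood at 7.81 and 16.6 CPM in Usp28 KO cells and 15.2 and 37.1 CPM in CTL cells, and the groups overlapped. Its log2 fold change was -1.09 ± 0.53 with all libraries and ran from -1.74 to -0.32 with 1 left out. The edgeR fit leaving out CTL replicate 1 called it (-1.61, adjusted p = 2.24e-05), as did that leaving out Usp28 KO replicate 2 (-1.74, adjusted p = 3.8e-05). Without Usp28 KO replicate 2, edgeR also called Ddx58 (adjusted p = 0.0331) and Bst2 (adjusted p = 0.0262).

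Among 11 MHC class II genes, 3 were tested and 0 called by edgeR. At an unadjusted p under 0.05, 1 of them, H2-Ab1, was higher, beside 6.86% of all tested genes. DESeq2 gave none of these 3 an adjusted p. H2-Ab1 passed the filter on low counts through its Usp28 KO libraries, so its place among the tested genes is tied to its difference. H2-Ab1, a class II β chain gene that lies beyond Tap2 in the same block, had 42 and 39 counts in Usp28 KO cells and 8 and 14 counts in CTL cells (1.76 ± 0.49; edgeR, adjusted p = 0.191). H2-Aa, which encodes the α chain that pairs with it, was at 0 in all 4 libraries. H2-DMa and H2-DMb1, which encode the class II peptide exchange factor, had 0.066 ± 0.43 and -0.28 ± 0.57, and the sign of H2-DMa turned after GC correction.

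**Figure D5:**
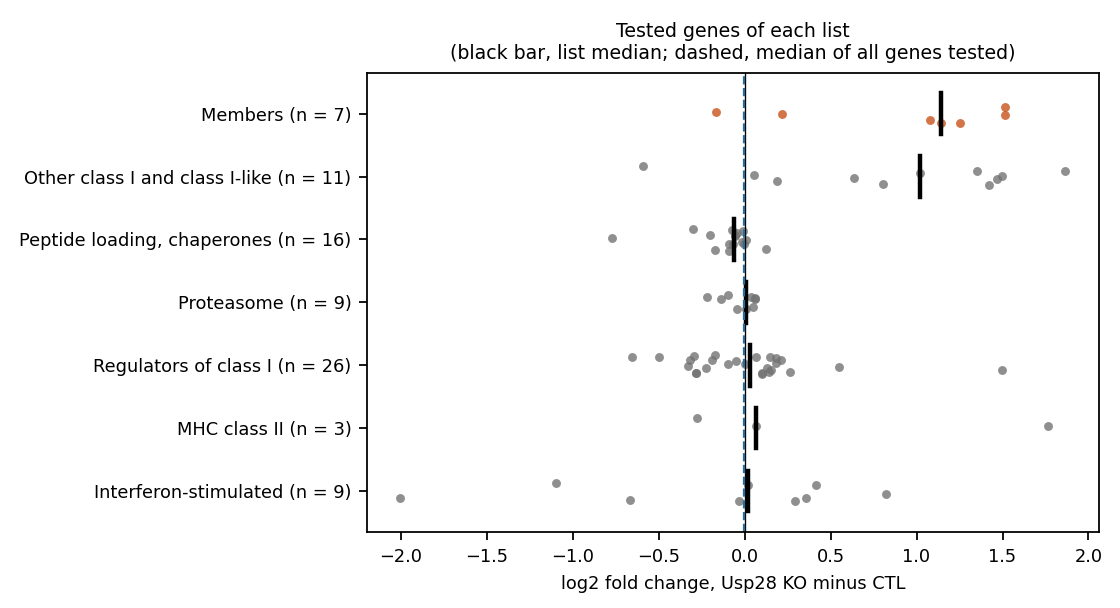
Log2 fold change, Usp28 KO minus CTL (x axis), of each tested gene in the members and in 6 other lists, with the list median as a black bar and the median of all 15341 tested genes as a dashed line. The members and the other class I genes have medians of 1.14 and 1.02, and the other lists have medians between -0.062 and 0.066. The members were chosen on these values, so their median is no separate support. Where at least 50 counts in 2 libraries were required, the median of the other class I genes was 0.51. Without Usp28 KO replicate 2 the class II median was 0.95 and the interferon-stimulated median 0.36.

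Genes next to the members did not share a direction either. The nearest tested gene on each side of each member gave 14 distinct genes, of which 0 were called by edgeR or DESeq2. At an unadjusted p under 0.05 there were 3, beside 6.86% of all tested genes higher and 4.34% lower. In 4 of them the groups did not overlap with Usp28 KO higher, and in 3 with Usp28 KO lower, beside 21.4% and 20.4% of all tested genes. Their median log2 fold change was 0.059. H2-K2 and H2-Ab1 were the higher genes among the 3, and Patl2, whose span on the other strand encloses B2m, was the lower one at -0.78 ± 0.26 (edgeR, adjusted p = 0.304). Ring1, beside H2-K1, had 0.17 ± 0.23, Rgl2, beside Tapbp, 0.19 ± 0.20, and Ddx39b, beside H2-D1, -0.23 ± 0.16.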

How the data were processed

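The authors deposited 1 table of raw counts by gene for the 4 libraries, laid out as featureCounts writes it, with exon positions and lengths. The submitters' processing notes name HISAT2, featureCounts, DESeq2 and the build mm10, with no version. How multi-mapping reads were counted is not given in the sources used here. Per the labels' protocols, polyadenylated RNA was captured on oligo(dT) beads before library preparation. Gene symbols came from GENCODE M21 (55141 identifiers matched, 260 did not, and 54821 had the same span), and promoters from RefSeq GRCm38.p6, which held 7 of the 10 members.

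Counts were tested in R 4.3.3 with edgeR 4.0.16: filterByExpr (minimum count 10, minimum total 15), TMM scaling, and a robust quasi-likelihood fit of Usp28 KO against CTL over all 15341 genes kept, p-values adjusted by Benjamini-Hochberg and called under 0.05. DESeq2 1.42.0 ran on the same genes and gave 12961 an adjusted p. Each ± after a log2 fold change is its standard error. CPM use the scaled library totals. The steps were run on simulated counts with the same variability for every gene and no trend with GC content or replicate number. These libraries show such trends, so that run does not check the steps under them. The members, lists and motifs were chosen with earlier results of these data known. The genes named are the members, Usp28, up to 4 genes of each list by smallest p plus any called, and the neighbours; other genes were named after their values were seen.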

Additional observations from a re-analysis of the deposited data

How the results depend on the processing

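H2-K1, H2-D1, H2-Bl and Tap1 kept a higher value in Usp28 KO cells in all 12 other settings in which each was fitted, and Tap2 in all 10. Their log2 fold changes over these settings ran from 0.82 to 1.40 for H2-K1, 0.84 to 1.36 for H2-D1, 1.33 to 1.73 for H2-Bl, 1.08 to 1.45 for Tap1 and 1.11 to 1.97 for Tap2. The members were chosen on these same libraries, so neither these ranges nor the member calls below add support for a difference. Whether a member was called depended on the setting. For the causes of the changes in count below, the cause was not tested. By edgeR with all libraries, 0 genes were called higher and 0 lower, with 0 members, 0 other pathway genes and 0 neighbours. All of these counts were also 0 with DESeq2 size factors in edgeR and with GC correction alone. The same held where at least 50 counts in 2 libraries were required. With DESeq2 the counts were 89 higher and 51 lower, with 2 members and 1 other pathway gene. With library totals in place of TMM they were 24 and 5, with 1 member. With no filter on low counts they were 204 and 118, with 4 members, 5 other pathway genes and 1 neighbour. The number of genes tested changes with the filter and with the libraries used. Counts from such fits therefore cannot be read against the shares of all genes given above. With a library left out, 49 to 146 genes were higher and 31 to 200 lower, with 1 to 3 members, 0 to 5 other pathway genes and 0 to 1 neighbours. The median of the members was 1.14 with all libraries and ran from 1.09 to 1.38 in those fits, with 1.38 without Usp28 KO replicate 2.

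The replicate number as a block gave 965 genes higher and 716 lower of the same 15341 tested. Among them were 4 members (H2-K1, H2-D1, H2-Bl and Tap1), 14 other pathway genes and 3 neighbours. Among those pathway genes were H2-Q4, H2-Q6, H2-Q7, H2-Ab1, Bst2 and Rfxap, higher, and H2-M5, Irf9, Nfyc, Ddx58, Irgm1 and Xaf1, lower. With GC correction and the replicate block together the counts over the same tested genes were 875 and 1277, with 4 members, 17 other pathway genes and 3 neighbours. Same-numbered libraries deviated from their group means together (r = 0.518 over 10704 genes, which are not independent), but 2 pairs do not show that the numbers pair the samples and the labels do not say so. The sign turned for B2m (from -0.68 to 0.21 with a library left out, above 0 in 2 of these fits), Tpp2 (0.15 with GC correction and 0.14 with the replicate block added), Thop1 (-0.10 in both of those settings and from -0.041 to 0.26 with a library left out), Psmb6 (from -0.15 to 0.29 with a library left out) and H2-DMa (-0.052 and -0.050 in the GC settings). Counts limit the low genes: Psmb8, Psmb9, Nlrc5 and Tap2 had at most 24 counts in a library.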
